A study of Caenorhabditis elegans with 6 samples.

Results

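The genes described here build and run the cilium, and they were measured by RNA-seq in cells sorted from male Caenorhabditis elegans, a nematode, at the young adult stage. They are 38 of the 46932 genes in the deposited count table, chosen by their WormBase symbols with earlier results of these data known. All 38 symbols matched a row. The 6 libraries came from offspring whose parents had been heat-stressed late in the L4 larval stage, each from 5000 sorted cells that the labels name vir & rep cells, without spelling the names out. Cells with these names lie at the worm's rectum. Both groups carried a him-8 mutation, which raises the share of males, and 2 extrachromosomal arrays that drive the red protein wrmScarlet from the pnc-1 and pcs-1 promoters. Such arrays can be lost from some cells. In the 3 wild-type libraries the strain had the tagged allele gfp::sl2::2xflag::aid::csr-1a, and in the 3 mutant libraries it had csr-1a_delta, a deletion. The csr-1 gene encodes an Argonaute, a protein guided by small RNAs. The comparison asks what loss of csr-1a changes in these male cells. Replicates are labelled biological, but no label names separate cultures, so p-values measure the spread between these libraries, which may be technical.

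A cilium is a microtubule-based projection of the cell, and in C. elegans only sensory neurons bear one. It is assembled by intraflagellar transport (IFT), in which a kinesin carries IFT-A and IFT-B particles to the tip and a dynein brings them back. The BBSome travels with the particles as an adaptor for membrane proteins, the transition zone at the base acts as a gate, and the RFX-type transcription factor DAF-19 switches many of these genes on through a promoter element called the X-box. In the male tail the sensory rays hold ciliated neurons whose polycystins LOV-1 and PKD-2 act in mating.

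Most of these genes were counted at a low but measurable level in both groups, and none of them passed the test between mutant and wild type. Of the 38 genes, 33 passed the filter on low counts, and 0 of the 33 were called higher or lower (edgeR quasi-likelihood test, adjusted p under 0.05). Over all 11968 genes tested, 5.59% were called, 4.04% higher and 1.55% lower in the mutant (484 and 185 genes). Scaling by library totals alone moved that split to 573 higher and 89 lower and the median log2 fold change of all tested genes from 0.01 to 0.11. DESeq2 and limma-voom also called 0 of the 33. Before adjustment only che-3 and che-2, 2 of the 33, had a p under 0.05. The median log2 fold change of the 33 was -0.17, with library totals -0.073, and between -0.41 and -0.075 with one library left out. The members' median deviation had an SD of 0.22 over the wild-type libraries, larger than that median. The symbols were chosen with earlier results of these data known, and the counts over the genes are given as a description.

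Total counts were 17748698 to 47890863 per library, of which ribosomal RNA took 74.4% to 78.4%. Levels are given as CPM, counts scaled to a fixed effective library total. The effective total is the total count, ribosomal RNA included, times the library's TMM normalisation factor from edgeR. These factors ran from 0.915 (wild-type replicate 1) to 1.13 (mutant replicate 2). On this scale 3 counts, the most that a count of 0 allows, correspond to 0.0630 to 0.177 CPM. These limits cover counting error only. Fewer genes had a count in wild-type replicate 3 (14012) and in mutant replicate 2 (12757) than in the other 4 libraries (18071 to 19083). The 9 rectal and reporter genes summed to 24.9 ± 4.63 CPM (SD, n = 3) in wild-type and 61.2 ± 15.1 CPM in mutant libraries. All 7 of them that were tested had a positive log2 fold change, and 2 were called higher, the reporters' own genes pnc-1 and pcs-1. These made up most of both sums, at 7.17 and 13.3 CPM in wild-type and 22.9 and 30.3 CPM in mutant libraries. The 2 not tested, mab-9 and egl-38, averaged 0.0477 and 0.428 CPM in wild-type libraries and 0 and 0.304 CPM in mutant ones. Markers of coelomocytes, the scavenger cells of the body cavity, summed to 1813 to 4484 CPM, so the defining genes of the labelled cells were not the leading ones. The csr-1 gene averaged 220 CPM in wild-type libraries against 165 CPM in mutant ones, with a log2 fold change of -0.42 that did not pass (adjusted p = 0.213, edgeR). They are no check of the deletion, because counting was per gene and its extent is not given.

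**Figure D1:**
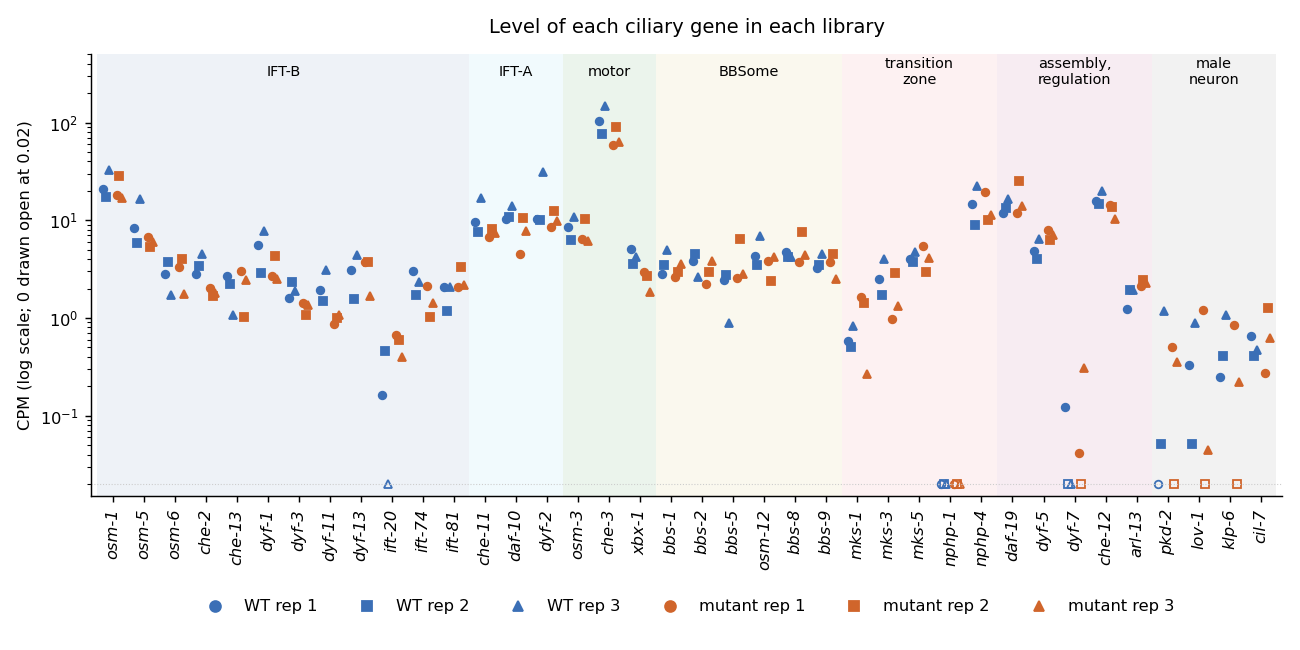
CPM on a log axis for each of the 38 ciliary genes in each library, ordered by role, with wild type in blue, mutant in orange and one symbol shape per replicate number. The dynein gene che-3 lies above all other members in each library, nphp-1 lies at 0 in all 6, and most genes have overlapping groups.

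The motors come first. The dynein heavy chain gene che-3 (WBGene00000485, WBcel235 chromosome I, 8062007 to 8081671, minus strand), which encodes the motor of the return trip, stood at 103, 76.2 and 149 CPM in wild-type replicates 1, 2 and 3. In mutant replicates 1, 2 and 3 it stood at 58.3, 89.5 and 63.5 CPM. The groups overlapped, since mutant replicate 2 lay above wild-type replicate 2. The log2 fold change was -0.63 ± 0.24 (SE), with a 95% interval of -1.17 to -0.09 (adjusted p = 0.2001, edgeR). The 6 coelomocyte markers, all called lower, had log2 fold changes of -0.94 to -0.64, and whether coelomocyte content bears on che-3 was not tested. With no filter on low counts (23501 genes tested) che-3 was called lower (log2 fold change -0.60, adjusted p = 0.0136). Without wild-type replicate 3 its log2 fold change was -0.36 (adjusted p = 0.602).

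The dynein light intermediate chain gene xbx-1 (chromosome V, 14980237 to 14982671) stood at 5.06, 3.57 and 4.19 CPM in wild type and at 2.98, 2.69 and 1.86 CPM in the mutant. Here the groups did not overlap, with the mutant below, yet the log2 fold change of -0.76 ± 0.38 did not pass (adjusted p = 0.367, edgeR). The kinesin gene osm-3, whose product moves particles outward, stood at 8.52, 6.23 and 10.7 CPM in wild type against 6.36, 10.3 and 6.16 CPM in the mutant. Its groups overlapped widely, with a log2 fold change of -0.16 ± 0.31. The gene algn-14 shares 181 bp of exon with osm-3 on the same strand, and how reads there were assigned was not given.

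Of the IFT-B particle, which carries cargo outward with the kinesin, all 12 listed subunit genes were tested and 0 were called. Their log2 fold changes ran from -1.15 (dyf-11) to 1.39 (ift-20), with 7 negative, 5 positive and a median of -0.37. The gene osm-1 (chromosome X, 16540674 to 16551211) was the highest of them per kilobase of exon. It stood at 20.7, 17.1 and 32.3 CPM in wild type and at 18.05, 28.3 and 16.7 CPM in the mutant. Its highest values were in wild-type replicate 3 and mutant replicate 2, and its log2 fold change was -0.15 ± 0.28. Next came osm-5, at 8.27, 5.87 and 16.3 CPM in wild type against 6.78, 5.38 and 5.94 CPM in the mutant. One wild-type library, replicate 3, was well above the other 5 for this gene (log2 fold change -0.75 ± 0.37, adjusted p = 0.348, edgeR).

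The smallest p among IFT-B genes belonged to che-2 (chromosome X, 481450 to 486504). It stood at 2.84, 3.42 and 4.49 CPM in wild type and at 2.04, 1.66 and 1.82 CPM in the mutant. All mutant libraries lay below all wild-type libraries, and the log2 fold change was -0.96 ± 0.42 (adjusted p = 0.273, edgeR). The subunit genes dyf-3 and dyf-11 also showed the mutant below wild type without overlap, at adjusted p of 0.709 and 0.379 (edgeR). The short gene ift-20, with 463 bp of exon, had 0 counts in wild-type replicate 3 and 4 to 32 in the other libraries. Its fold change is therefore poorly fixed (SE 1.40), and 68 bp of it overlap spe-5 on the opposite strand. Among the rest, osm-6, che-13, dyf-13 and ift-81 had log2 fold changes of 0.01 to 0.52, and dyf-1 and ift-74 of -0.77 and -0.64.

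The IFT-A particle works with dynein on the way back, and all 3 of its listed genes had negative values. The gene dyf-2 (chromosome III, 13674879 to 13686445) stood at 10.3, 10.2 and 31.2 CPM in wild type and at 8.52, 12.5 and 9.79 CPM in the mutant. Only wild-type replicate 3 was high, at about 3 times the other wild-type libraries. The log2 fold change was -0.74 ± 0.41 (adjusted p = 0.425, edgeR). The gene daf-10 stood at 10.4, 10.8 and 13.9 CPM in wild type and at 4.47, 10.5 and 7.75 CPM in the mutant. Its groups met between mutant replicate 2 and wild-type replicate 1, with a log2 fold change of -0.63 ± 0.32. For che-11 the log2 fold change was -0.61 ± 0.32. Their adjusted p-values were 0.385 and 0.389 (edgeR). Without wild-type replicate 3 the log2 fold changes of dyf-2, daf-10 and che-11 were -0.0096, -0.50 and -0.23.

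Counting IFT-A, IFT-B and the motors together, 13 of 18 tested genes had a negative log2 fold change, and over all tested genes 5920 of 11968 had one. That split is a description of these libraries, not a result about the genes, because none passed. Wild-type replicate 3 was the highest of its group for 23 of the 33 tested members. Across the alternative fits, which include one without that library, only osm-1 and osm-3 of the 13 negative genes turned sign. Of the positive ones osm-6, che-13 and dyf-13 turned in some fit. That library's part in the split was not tested beyond these fits.

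The BBSome genes summed to nearly the same level in both groups, 22.5 ± 1.47 CPM (SD, n = 3) in wild-type and 22.3 ± 4.04 CPM in mutant libraries. All 6 were tested and 0 were called. The subunit gene bbs-8 (chromosome V, 6762467 to 6765072) stood at 4.73, 4.24 and 4.19 CPM in wild type and at 3.78, 7.55 and 4.43 CPM in the mutant. The wild-type libraries were close to each other and mutant replicate 2 stood alone above them (log2 fold change 0.26 ± 0.36). The largest difference in the group was that of bbs-5, at 2.43, 2.76 and 0.885 CPM in wild type against 2.54, 6.45 and 2.79 CPM in the mutant. Wild-type replicate 3 was the lowest and mutant replicate 2 the highest, and the log2 fold change of 0.94 ± 0.54 did not pass (adjusted p = 0.456, edgeR). The other 4, bbs-1, bbs-2, bbs-9 and osm-12, lay between -0.49 and -0.07 in log2 fold change.

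In the transition zone, 4 of 5 genes were tested and 0 called. The gene nphp-4 (chromosome V, 11831197 to 11843728) stood at 14.7, 8.98 and 22.7 CPM in wild type and at 19.6, 10.0 and 11.3 CPM in the mutant. Both groups spanned about the same range (log2 fold change -0.17 ± 0.35). The scaffold gene mks-5 stood at 4.03, 3.73 and 4.78 CPM in wild type against 5.48, 2.93 and 4.08 CPM in the mutant. Its log2 fold change of -0.00078 ± 0.37 was the closest to 0 of all members, with a 95% interval of -0.81 to 0.80, and its sign turned under other scalings and filters. The membrane protein gene mks-3 had the smallest p of the group, at 2.51, 1.73 and 4.01 CPM in wild type against 0.965, 2.89 and 1.33 CPM in the mutant. Its groups overlapped, and the log2 fold change was -0.68 ± 0.57 (adjusted p = 0.669, edgeR). The remaining tested gene, mks-1, stood at 0.266 to 1.64 CPM.

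The untested transition zone gene, nphp-1 (chromosome II, 10648893 to 10652256), had 0 counts in each of the 6 libraries, although its partner nphp-4 had 176 to 934. A count of 0 allows at most 0.0630 CPM in the deepest library and 0.177 CPM in the shallowest. No other annotated gene overlaps its 2121 bp of exon. Of the 19980 protein-coding genes in the table, 2094 (10.5%) had no count in any library. Among other ciliary genes the kinesin subunit gene klp-11 was likewise at 0 in all 6 libraries, while klp-20 and kap-1, which encode the other subunits of that motor, had 3 to 42 and 61 to 200 counts.

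The genes of cilium assembly and its regulation had positive log2 fold changes in 3 of 4 tested cases, and 0 of the 4 were called. The transcription factor gene daf-19 (chromosome II, 10157520 to 10169346) stood at 11.7, 13.5 and 16.6 CPM in wild type and at 11.8, 25.3 and 13.9 CPM in the mutant. Only mutant replicate 2 lay above the wild-type range, and the log2 fold change was 0.29 ± 0.30 with a 95% interval of -0.37 to 0.94 (adjusted p = 0.746, edgeR). Counting was per gene and does not separate its isoforms. The gene che-12, which encodes a ciliary HEAT-repeat protein, stood at 15.8, 14.6 and 19.9 CPM in wild type against 14.2, 13.8 and 10.2 CPM in the mutant. The mutant libraries lay just below the wild-type ones, with the smallest SE among the members (log2 fold change -0.39 ± 0.23, adjusted p = 0.461, edgeR).

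The kinase gene dyf-5, whose product controls cilium length, had a log2 fold change of 0.47 ± 0.30. The small GTPase gene arl-13 had one of 0.43 ± 0.49 and was the only member with all mutant libraries above all wild-type ones, at 2.12 to 2.45 against 1.23 to 1.95 CPM. These genes overlap more abundant neighbours on the opposite strand, dyf-5 over 140 bp with ppfr-1 and arl-13 over 13 bp with rla-1. The gene dyf-7, for a matrix protein that anchors the dendrite tip of the neuron, had 0 to 7 counts and was not tested.

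In all, the libraries of the groups did not overlap for 6 of the 33 tested genes, 1 with the mutant above (arl-13) and 5 with it below (che-2, dyf-3, dyf-11, xbx-1 and che-12). Over all 11968 tested genes 24.8% did not overlap, 1512 genes with the mutant above and 1456 with it below. In both directions together the share among the ciliary genes was thus no higher than the background.

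**Figure D2:**
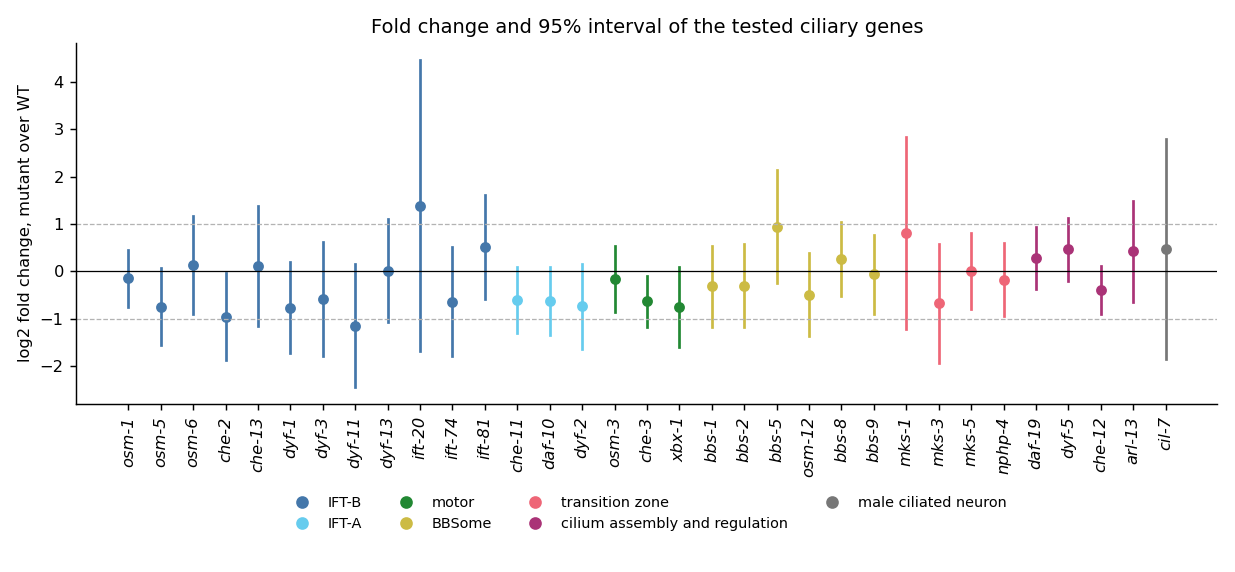
Log2 fold change, mutant over wild type, of the 33 tested genes with the 95% interval from the edgeR fit, coloured by role, with dashed lines at 1 and -1. Intervals exclude 0 only for che-3 and che-2 before adjustment, and they are widest for the sparsely counted ift-20, mks-1 and cil-7.

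The size of change that these data could have shown differs between the genes. In the main fit the 95% interval lay within a log2 fold change of 1 on either side of 0 for 7 of the 33. For these a doubling or a halving lay outside that interval, which is not adjusted for the number of genes. They were osm-1, osm-3, mks-5, nphp-4, bbs-9, daf-19 and che-12. Other fits gave other SEs, as for bbs-9 0.38 in the main fit and 0.45 with a replicate block. The list therefore holds for the main fit only. For the other 26 the interval reached past 1 or -1, so a change of that size lay within the error. The SE ran from 0.23 (che-12) to 1.40 (ift-20), and total counts over the 6 libraries from 69 to 12983.

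The genes of male ciliated neurons were close to the limit of detection. Only cil-7, which encodes a protein of extracellular vesicle release, was tested. It stood at 0.658, 0.408 and 0.472 CPM in wild type against 0.273, 1.27 and 0.620 CPM in the mutant, and these ranges overlapped (log2 fold change 0.47 ± 1.05). The kinesin gene klp-6 had 6, 8 and 18 counts in wild type and 40, 0 and 5 in the mutant. On the same strand klp-6 shares 126 bp of exon with C45G9.6, a gene with 810 counts in total against 77 for klp-6. The polycystin genes pkd-2 and lov-1 had 0 to 24 and 0 to 58 counts, and their groups overlapped. In mutant replicate 2 klp-6, pkd-2 and lov-1 were all at 0, below 0.119 CPM at most. In that library the list of CEM and ray neuron markers was also sparse, with 2 of 7 genes counted and a sum of 1.38 CPM against 5.04 to 14.1 CPM in the other 5. The gene dyf-1 ends 93 bp before the start of cil-7 on the minus strand of chromosome I, with no protein-coding gene between, and dyf-1 had 56 to 135 counts and cil-7 had 8 to 32. The next closest pair of members, lov-1 and daf-19, lay 35694 bp apart.

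**Figure D3:**
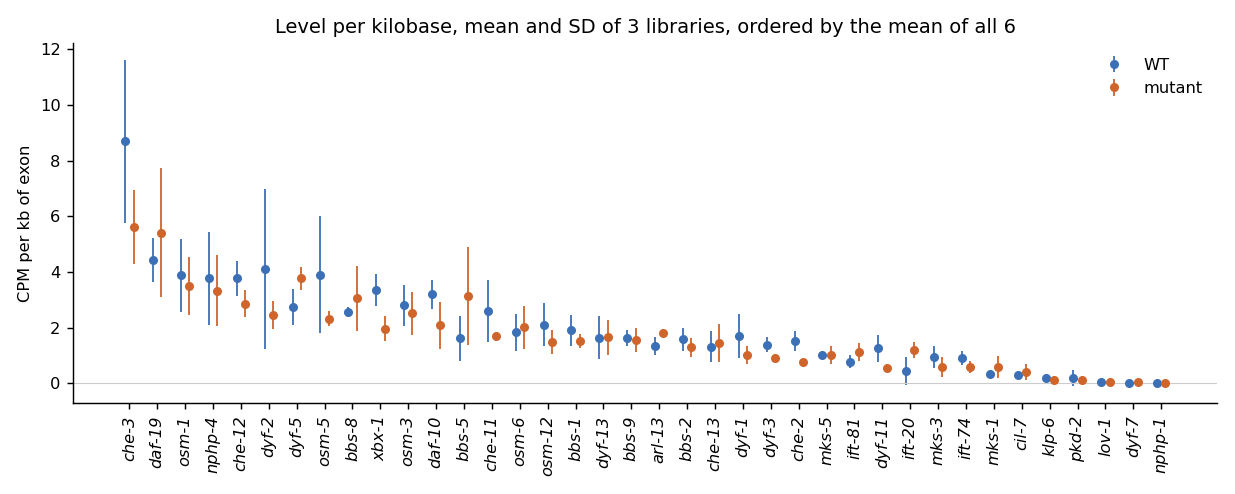
Level per kilobase of exon (CPM per kb, linear axis) of the 38 genes as mean and SD of 3 libraries per group, ordered by the mean over all 6. The order starts with che-3 and daf-19 and ends with the male neuron genes, dyf-7 and nphp-1.

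Compared per kilobase of exon, the members spanned from che-3, at 8.69 ± 2.93 CPM per kb (SD, n = 3) in wild type, to 0. The mutant value of che-3 was 5.60 ± 1.33 CPM per kb. In the order of the mean over all 6 libraries, daf-19 came second, at 4.44 ± 0.79 in wild type and 5.42 ± 2.32 CPM per kb in the mutant. It was followed by osm-1, nphp-4, che-12 and dyf-2, at 3.28 to 3.69 CPM per kb over all libraries, which do not differ beyond their SDs. Among the tested genes of the whole table, che-3 stood at percentile 77.9 of level per kilobase, daf-19 at percentile 68.3 and mks-1 at percentile 8.0. Within IFT-B the mean level per kilobase ran from 0.755 (ift-74) to 3.69 (osm-1), so genes for parts of the same particle were not counted at equal levels. Because che-3 is also the longest member, with 12568 bp of exon, it gave 33.1% of the members' summed CPM.

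A list of 40 other ciliary genes, chosen by symbol and without the members, likewise held no called gene. Of them 34 were tested and 0 were called, with 1 at an unadjusted p under 0.05 (edgeR; 0 called by DESeq2 and by limma-voom). Their median log2 fold change was -0.09. That gene was ifta-1, an IFT-A component, at 9.95 CPM on average in wild-type and 6.54 in mutant libraries (log2 fold change -0.60 ± 0.27, adjusted p = 0.285, edgeR). Of 8 tested transition zone genes in that list 4 were positive and 4 negative, and of 7 tested IFT and motor genes 1 was positive and 6 were negative. Of 5 tested tubulin genes and tubulin modifiers none was positive, with values from -1.12 to -0.0030 and adjusted p of 0.584 or more (edgeR).

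The summed level of the 38 members was 279, 230.5 and 408 CPM in wild-type replicates 1, 2 and 3 and 219, 282 and 209 CPM in mutant replicates 1, 2 and 3. Wild-type replicate 3 was the highest and the groups overlapped. In a bulk sample fewer cells of a type and less RNA per cell cannot be told apart. A list of 16 pan-neuronal genes, such as genes of synaptic vesicle release and neuropeptide processing, summed to 638, 582 and 894 CPM in wild type and to 498, 607 and 518 CPM in the mutant. Its highest library was again wild-type replicate 3, and mutant replicate 2 was again the highest of the mutants.

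As a percentage of the pan-neuronal sum, the ciliary genes stood at 43.8%, 39.6% and 45.6% in wild type and 44.1%, 46.5% and 40.4% in the mutant, and the groups overlapped. Against 2 other lists the mean proportion was lower in the mutant. It was 187 ± 24.5% (SD, n = 3) in wild-type and 157 ± 17.6% in mutant libraries of the sum of the other ciliary genes, with overlap. Of the sum of sensory signalling genes of ciliated neurons it was 177.3 ± 30.8% in wild-type and 143.7 ± 23.8% in mutant libraries, with overlap. The most abundant gene of that list was gcy-12. Without gcy-12 the proportion was 407%, 377% and 417% in wild type against 320%, 367% and 336% in the mutant, without overlap. The groups thus separated on this list only when gcy-12 was left out, a step that was not in the design. The separation also leaned on che-3, which gave 33.1% of the members' sum. Without che-3 the members summed to 154 CPM in wild-type replicate 2, against 61.1 CPM for the list without gcy-12. In mutant replicate 2 the sums were 193 and 76.9 CPM, so those libraries had nearly equal proportions. No test was run on these proportions. Of the 16 pan-neuronal genes 1 was called, rgef-1, which was lower in mutant libraries (a log2 fold change of -0.99 ± 0.16, adjusted p = 0.00346, edgeR), and 0 were called higher. That is 6.25%, near the 5.59% called over all tested genes. Of the 16 genes 11 were negative and 5 positive, and 5 had an unadjusted p under 0.05 (edgeR). For 5 the mutant lay below without overlap, and for 0 above. The median log2 fold change of the pan-neuronal genes was -0.27. Of 11 tested genes of sensory signalling in ciliated neurons, such as the channel genes osm-9, ocr-2 and tax-4, 0 were called and the median was 0.02. All 12 body wall muscle genes were called higher in the same fit, from 748 ± 103 to 11890 ± 6243 CPM in sum (SD, n = 3). The ciliary genes stood at 33.4% to 52.8% of the muscle sum in wild type and at 1.15% to 3.49% in the mutant. The sort reporters' own genes pnc-1 and pcs-1 had log2 fold changes of 1.68 ± 0.30 and 1.19 ± 0.27, and unc-54, a muscle myosin, 4.03 ± 0.32. Whether these shifts in other cell types' RNA bear on the ciliary genes was not tested.

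Markers of sense organ glia, which wrap the ciliated endings, were at a low level, with a sum of 47.4 to 69.1 CPM. The gene pros-1 alone gave 49.7% of that sum, and hlh-17 was at 0 in all libraries. Of the 12 marker genes 7 were tested and 0 were called.

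**Figure D4:**
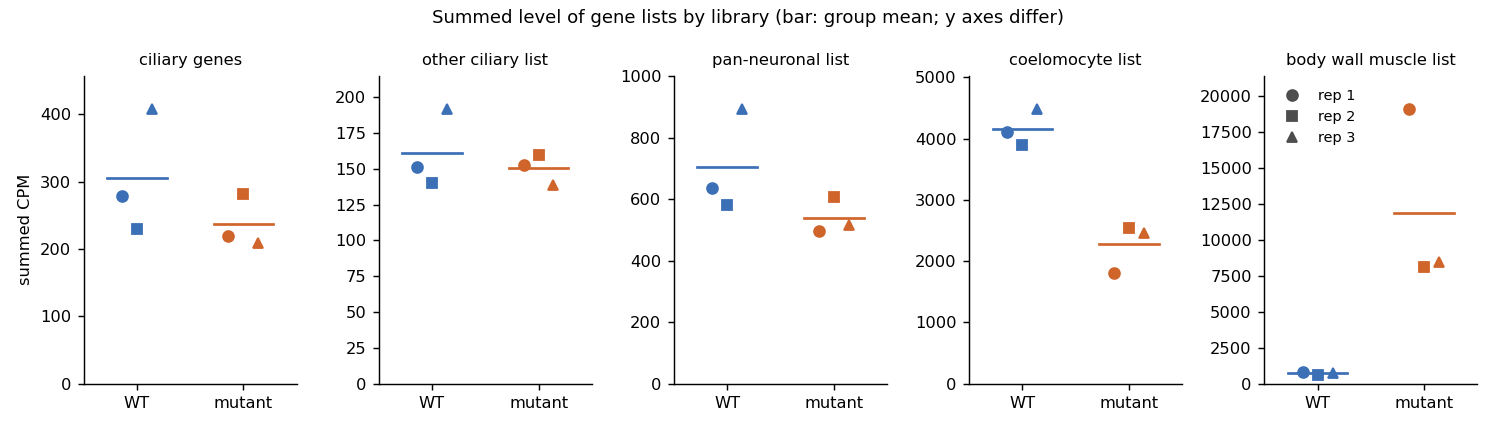
Summed CPM per library of the 38 ciliary genes, 40 other ciliary genes and 3 marker lists, with a bar at the group mean and a separate linear axis from 0 in each panel. The ciliary and pan-neuronal panels share their highest library, wild-type replicate 3, and overlap between groups, whereas coelomocyte sums are lower and muscle sums higher in all mutant libraries.

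Within the wild-type group the members did not vary evenly. Wild-type replicate 3 was the highest of its group for 23 of the 33 tested genes, while over all tested genes it was the highest for 39.2%. Wild-type replicate 2 was the lowest for 20 of the 33, against 33.3% of all tested genes. Against the mean of the other wild-type libraries, the log2 ratio in replicate 3 had a median of 0.73 for the 11 tested members with at least 3000 bp of exon. For the 14 members under 2000 bp the median was -0.05. Across the 33 members, which share one library and its depth, Spearman's rho between that log2 ratio and exon length was 0.67. Over 11967 tested genes with a known length it was 0.01. The other ciliary genes with at least 3000 bp were mixed among the wild-type libraries. There ifta-1, mks-6 and nekl-4 were highest in replicate 3, ift-139 and ccpp-1 were lowest in it, and che-10 lay between. In wild-type replicates 1 and 2 the same rho over the members was -0.31 and -0.59, and the median of the long members was -0.13 and -0.61. Each library is set against the others of its group, so these values are not independent. The lowest ratios in that library were those of bbs-5, che-13, osm-6 and ift-20, all under 2000 bp. The highest were those of dyf-2, osm-5, che-11, nphp-4 and dyf-1, of which osm-5 has 2605 bp and the others over 3000 bp. Among members length goes with count, so the scatter of short genes also holds more counting error.

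Mutant replicate 2, the other library with few genes detected, was the highest of its group for 17 of the 33, against 33.0% of all tested genes. There rho with length was 0.08, while the medians of long and short members were 0.55 and 0.12. The length limits and this comparison were chosen after the values were seen. Leaving out both libraries changed no call among the members, with 0 of those tested called and a median log2 fold change of -0.10.

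**Figure D5:**
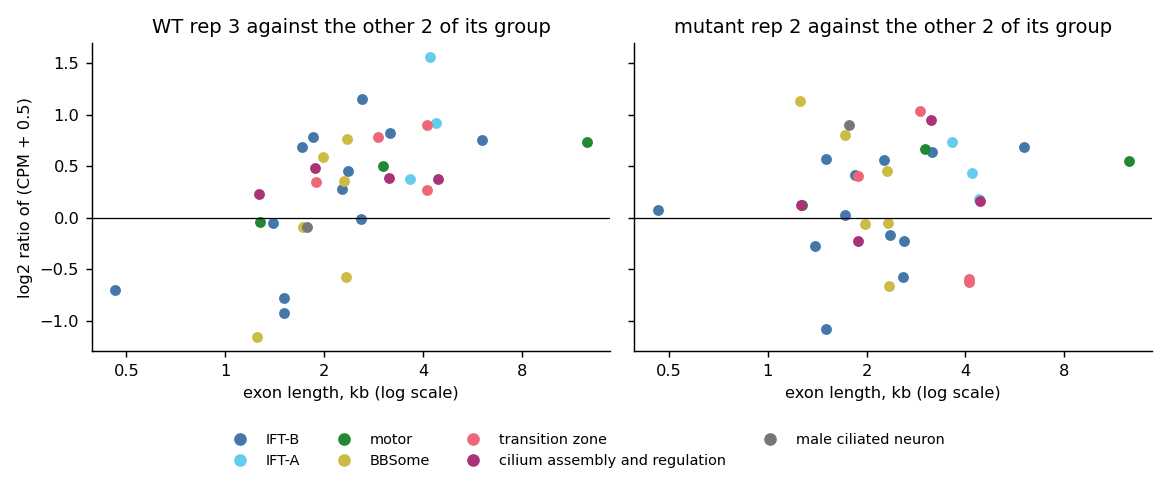
Log2 ratio of CPM plus 0.5 in wild-type replicate 3 (left) and mutant replicate 2 (right) to the mean of the other libraries of the same group, against exon length in kb on a log axis, for the 33 tested genes coloured by role. In wild-type replicate 3 the members with at least 3000 bp have a median of 0.73 and those under 2000 bp of -0.05, and in mutant replicate 2 the medians are 0.55 and 0.12 (rho 0.08).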

How the data were processed

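The authors deposited one table of raw read counts per gene for 6 libraries. The submitters' processing notes name DESeq2, featureCounts, Subread (2.0.0), STAR and fastp (0.20.1), with no role or order. Build, annotation release and strand setting were not given in the sources used here, so reads of genes that overlap on opposite strands may be mixed. Symbols, coordinates (1-based) and exon lengths came from WBcel235 (Ensembl release 115) by identifier and need not match the counted intervals.

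Counts were filtered with edgeR's filterByExpr (a count of 10, and 15 in total), normalised by TMM factors and tested by group with the quasi-likelihood test of edgeR 4.0.16 in R 4.3.3 (robust fit). P-values were adjusted by Benjamini-Hochberg over all 11968 tested genes. Fits with DESeq2 1.42.0, limma 3.58.1 (voom), other scalings and filters, a replicate block and each library left out were alternatives. The fit was tested on simulated counts. Levels per kilobase divide CPM by exon length. All pairs of libraries of one group differed by more than sampling noise (chi-square per degree of freedom 8.76 or more). Same-numbered libraries did not deviate together from their group means, which cannot decide whether they were paired.

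The members and lists were chosen with earlier results of these data known. Of the symbols listed, cep-290 and opt-2 matched no row. Values in every library are given for the 2 members of each role with the highest level per kilobase and the one with the smallest p. Named outside this rule, after values were seen, were osm-3, nphp-1, klp-11, pkd-2, lov-1, arl-13 and the members given by range.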

Additional observations from a re-analysis of the deposited data

How the results depend on the processing

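Of 33 tested members, 0 were called in all alternatives but one. With no low-count filter 1 was called (che-3), and 1048 genes were called in all. DESeq2 called 1054 genes, the replicate block 557 and scaling by library totals 573 higher and 89 lower, against 669 in the main test (484 higher and 185 lower). Leaving out one library gave 416 to 697 called genes and a members' median log2 fold change of -0.41 (without wild-type replicate 2) to -0.075 (without wild-type replicate 3). The other ciliary genes had 0 calls in all of these. The same-numbered libraries' deviations correlated at 0.02, -0.03 and -0.11 for replicates 1, 2 and 3. With 3 libraries per group and no label on pairing, these values cannot decide whether the numbers mark pairs.

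Signs turned for 12 uncalled members, with main values of -0.49 (osm-12) to 0.47 (cil-7), and the cause was not tested. For mks-5 the log2 fold change was 0.0015 with size factors of the DESeq2 kind, 0.086 with library totals, 0.037 without a filter, 0.046 with the stricter filter, 0.0029 by DESeq2, 0.041 by limma-voom, 0.046 without ribosomal RNA and 0.047 without muscle genes, the last chosen after seeing the data. For bbs-9 it was 0.049 with library totals, and for cil-7 -0.18 by limma-voom. Without wild-type replicate 3 and mutant replicate 2, osm-6, osm-12, bbs-8, mks-5, nphp-4 and cil-7 stood at -0.30, 0.087, -0.096, 0.35, 0.43 and -0.26. With one library left out, ranges that crossed 0 were -0.24 to 0.26 (mks-5), -0.31 to 0.36 (dyf-13), -0.36 to 0.14 (osm-1), -0.12 to 0.44 (osm-6), -0.20 to 0.51 (che-13), -0.37 to 0.027 (osm-3), -0.19 to 0.18 (bbs-9), -0.51 to 0.19 (nphp-4), -0.045 to 0.46 (bbs-8), -0.062 to 0.51 (daf-19) and -0.18 to 0.88 (cil-7). Of the 4 male neuron genes, 3 had too few counts to be tested.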
